A study of Mus musculus with 76 samples.

Results

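Among the marker genes that define Pomc neurons in the hypothalamic reference atlas there are several of which little is known in this cell type. 6 of them, *Asb4*, *Cpne4*, *Shisal2b*, *Thsd4*, *Gpr179* and *Tbx3os1*, are described here. They were chosen by name from the Pomc marker genes shown for these cells and were found by symbol among the 56980 genes counted. They were followed in 76 single neurons of the arcuate nucleus (ARC) of the hypothalamus, each recorded with a patch pipette whose content was then sequenced (Patch-seq). The cells came from male reporter mice, named PomcCreERT2;tdTomato;Pomc-eGFP in the study's results and PomcCreERT2;tdTomato in its methods. In all of them a *Pomc*-driven, tamoxifen-inducible Cre switched on the red tdTomato reporter at 12 weeks of age, which marks the Pomc lineage. Green eGFP marks cells in which the *Pomc* promoter is active at the time of recording. Traced cells with eGFP are called Pomc+ and traced cells without it Ghost. There were 23 Pomc+ and 15 Ghost cells from mice on chow diet (CD), and 19 Pomc+ and 19 Ghost cells from mice fed a high-fat diet (HFD) for 6 months. No mouse is named in the labels, and all cells of 1 label on 1 diet were therefore taken as a single sample. Differences between these groups are given as values without a test, and the intervals given cover counting error only.

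Pomc neurons make pro-opiomelanocortin, the precursor of melanocortin peptides that reduce food intake, and arise together with other arcuate neurons from *Pomc*-expressing progenitors. *Asb4* encodes an ankyrin repeat and SOCS box protein, a class of substrate adaptors of cullin ubiquitin ligases, and is enriched in the arcuate nucleus. *Cpne4* encodes a copine, a calcium-dependent phospholipid-binding protein. *Shisal2b*, formerly *Fam159b*, encodes a Shisa-like membrane protein. *Thsd4* encodes a secreted matrix protein that associates with fibrillin microfibrils. *Gpr179* encodes an orphan receptor best known from retinal bipolar cells, where it anchors RGS proteins. *Tbx3os1* is a long noncoding RNA from the strand opposite *Tbx3*, a T-box transcription factor that maintains Pomc neuron identity.

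The genes lie apart in the genome. In the GENCODE M21 annotation of GRCm38, *Asb4* (ENSMUSG00000042607) spans chr6:5383386-5433022 on the plus strand and *Cpne4* (ENSMUSG00000032564) chr9:104547286-105034544 on the plus strand. *Shisal2b* (ENSMUSG00000042655) spans chr13:104845283-104863893, *Thsd4* (ENSMUSG00000032289) chr9:59966931-60522046 and *Gpr179* (ENSMUSG00000070337) chr11:97332109-97352077, all on the minus strand. *Tbx3os1* (ENSMUSG00000087516) spans chr5:119570130-119671365 on the minus strand and runs into the first bases of *Tbx3* on the plus strand. The pair share 697 bases, of which 115 are exonic in both genes. The libraries do not keep strand, so reads from those 115 bases cannot be told apart. None of the other 5 genes shares exonic bases with another annotated gene. By CPM *Asb4* was the gene of this group that followed *Pomc* most closely from cell to cell. The 250 bases before the annotated start of both are therefore shown (RefSeq, GRCm38.p6, each 5′ to 3′ on the gene's strand). Those before the start of *Tbx3os1*, which overlaps *Tbx3*, are shown as well. The *Asb4* window, the first of its 2, is chr6:5383136-5383385 (plus), the *Pomc* window chr12:3954695-3954944 (plus) and the *Tbx3os1* window chr5:119671509-119671758 (minus). The *Tbx3os1* window lies within *Tbx3*, which spans chr5:119670669-119684724 in GENCODE M21. Capitals mark the letters TAATTA, a core recognised by many homeodomain proteins.
Asb4: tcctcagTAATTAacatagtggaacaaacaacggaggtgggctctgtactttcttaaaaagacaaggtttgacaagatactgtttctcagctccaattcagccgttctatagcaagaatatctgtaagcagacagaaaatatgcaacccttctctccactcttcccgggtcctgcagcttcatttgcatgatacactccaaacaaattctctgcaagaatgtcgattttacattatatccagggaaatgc
Pomc: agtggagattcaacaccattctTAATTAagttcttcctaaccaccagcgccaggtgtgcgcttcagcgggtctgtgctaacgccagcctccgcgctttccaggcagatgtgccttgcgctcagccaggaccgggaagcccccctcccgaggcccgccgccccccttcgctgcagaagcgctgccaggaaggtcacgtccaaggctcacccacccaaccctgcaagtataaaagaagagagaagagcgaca
Tbx3os1: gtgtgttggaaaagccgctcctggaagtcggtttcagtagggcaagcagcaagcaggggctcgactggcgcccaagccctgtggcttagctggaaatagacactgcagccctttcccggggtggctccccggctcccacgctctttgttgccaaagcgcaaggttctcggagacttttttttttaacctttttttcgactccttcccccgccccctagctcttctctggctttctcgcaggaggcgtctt
The letters TAATTA, searched on both strands, stood in this window of *Asb4*, 243 bases before its start, and of *Pomc*, 228 bases before its start. They occurred in 1 of the 9 windows that RefSeq gives for the 6 genes and in 5.29% of all 32851 promoter windows of 300 bases. A T-box half-site (GGTGTGA, 3.98% of all windows) and a STAT site (TTCNNNGAA, 8.30%) were found in none of the 9, and an E-box (CAGCTG, 16.3%) stood in the 2 windows of *Thsd4*. These matches describe letters and not binding.

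Depth differed widely between cells. Totals ran from 4057 to 1452605 counts with a median of 322652, so that 1 count was worth between 0.688 and 246 CPM, the count divided by the cell's total and multiplied by 1000000. Ghost cells on CD were the shallowest group, with a median of 123528 counts, against 339691 in Pomc+ cells on CD, 393797 in Pomc+ cells on HFD and 333785 in Ghost cells on HFD. At least 1 of 6 neuronal markers was counted in 74 of 76 cells, and *Pomc* itself in 41 of 42 Pomc+ and 32 of 34 Ghost cells. Markers of other cell types were also counted. Any of 6 microglial markers was counted in 19 of 42 Pomc+ and 20 of 34 Ghost cells, and summed to a median of 0 CPM (range 0 to 8268) and 71.6 CPM (range 0 to 5994), respectively. Any of 6 astrocyte markers was counted in 33 Pomc+ and 24 Ghost cells (medians 132 and 15.8 CPM), and any of 6 oligodendrocyte markers in 37 and 31 cells (medians 171 and 279.9 CPM). *Agrp* or *Npy*, which define the neighbouring AgRP neurons, was counted in 6 Pomc+ and 15 Ghost cells. Endothelial, fibroblast or mural, and tanycyte or ependymal markers were counted in 8, 15 and 7 of the 76 cells, at sums of at most 310, 389 and 178 CPM. The part of these transcripts in the values of the 6 genes was not tested.

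*Asb4* was the most widely counted of the 6 genes, in 56 of 76 cells (73.7%, exact binomial 95% interval 62.3 to 83.1%). The others followed with *Shisal2b* in 24 cells (31.6%), *Cpne4* in 20 (26.3%), *Thsd4* in 15 (19.7%), *Gpr179* in 11 (14.5%) and *Tbx3os1* in 8 (10.5%, 4.66 to 19.7%). Per kilobase of exon, the mean level over all cells was 143 CPM for *Asb4*, 32.9 for *Shisal2b*, 4.21 for *Cpne4*, 2.63 for *Gpr179*, 1.94 for *Thsd4* and 1.02 for *Tbx3os1*, on a scale on which *Pomc* reached 4965 and *Tbx3* 4.90. The last 4 of these 6 genes cannot be ordered beyond the spread between cells. Without the 1 cell that was highest for each gene their means per kilobase were 3.07, 1.63, 0.954 and 0.671 CPM, and each was uncounted in more than 70% of the cells.

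**Figure D1:**
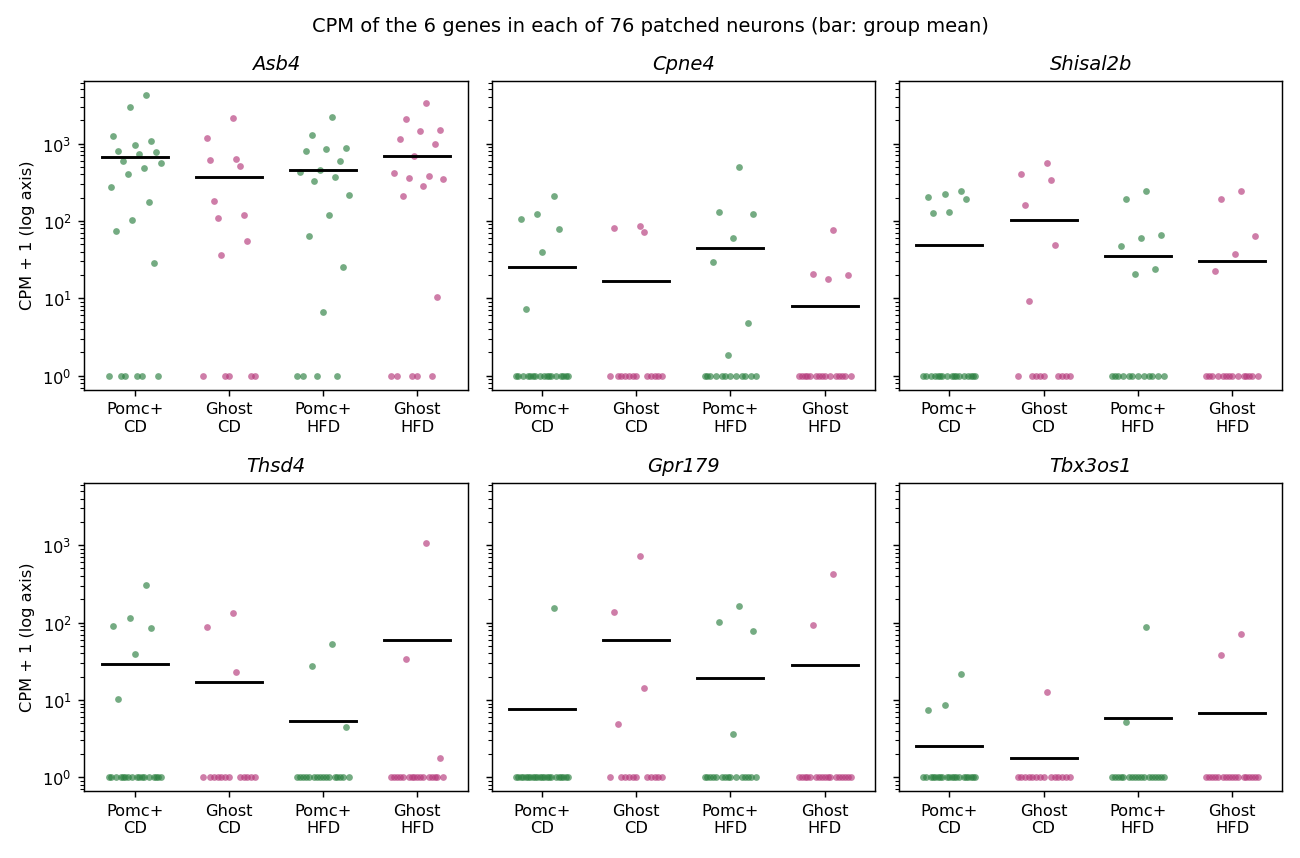
CPM + 1 of each gene on a log axis in the 76 neurons, by eGFP label and diet, with 1 point per cell, cells without a count at 1 and a bar at the group mean. *Asb4* was counted in most cells of every group, while the means of the other genes rest on the few cells above the line of points at 1.

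The shares of Pomc+ and Ghost cells with *Asb4* were not separable by counting error. It was found in 32 of 42 Pomc+ cells (76.2%, 60.5 to 87.9%) and in 24 of 34 Ghost cells (70.6%, 52.5 to 84.9%). In Pomc+ cells its CPM ran from 0 through a median of 347 to 4224, and in Ghost cells from 0 through 243 to 3333, so that the ranges overlapped almost entirely. The mean was 572 CPM in Pomc+ and 549.6 CPM in Ghost cells, a ratio of 0.961. On the 2 diets the means differed in opposite directions. On CD the median was 405 CPM (highest 4224) in Pomc+ and 108 CPM (highest 2165) in Ghost cells, with means of 670.1 and 372 CPM, a ratio of 0.554. The ratio on CD depended on the scale, and was 0.925 by summed counts over summed totals and 0.255 by the deposited normalised counts. On HFD the median was 326 CPM (highest 2183) in Pomc+ and 353 CPM (highest 3333) in Ghost cells, with means of 453 and 690.2 CPM, a ratio of 1.52, with 2.097 by summed and 2.04 by normalised counts. Leaving out any 1 cell gave ratios from 0.363 to 0.731 on CD and from 1.20 to 1.93 on HFD. The lowest of these on CD came without the Ghost cell at 2165 CPM. This difference between the diets was not tested, and it was uneven along the order of the cells. Cell numbers fall into 8 runs of consecutive numbers on 1 diet. In 7 of these 8 runs, 3 of the 4 on HFD included, the Ghost mean was below the Pomc+ mean, with ratios from 0.107 to 0.908. Of these HFD runs, 1 held 1 Ghost and 3 Pomc+ cells and another held 4 Ghost cells and 1 Pomc+ cell. The last of them had close means, 141 CPM in Ghost and 156 CPM in Pomc+ cells. Among the 6 runs with at least 3 cells of each label, the Ghost mean was lower in 5. The exception was the longest run, 11 Ghost and 10 Pomc+ cells on HFD, with means of 704 and 308 CPM and a ratio of 2.29. The highest *Asb4* level among Ghost cells, 3333 CPM, lay in this run and came from 43 counts in a library of 12900 counts. That library had counts of 3 of the 6 neuronal, 2 of 6 microglial (930 CPM in sum) and 1 of 4 endothelial markers (310 CPM). It also had counts of 1 of 6 astrocyte (155 CPM) and 1 of 6 oligodendrocyte markers (310 CPM). The highest Pomc+ cell, at 4224 CPM, had counts of 5 neuronal and 1 microglial marker (258 CPM) and of no endothelial marker. It too had counts of astrocyte markers (2 of 6, 436 CPM) and oligodendrocyte markers (2 of 6, 278 CPM).

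*Cpne4* was the 1 gene of the 6 whose mean CPM was lower in Ghost cells on both diets. It was counted in 13 of 42 Pomc+ cells (31%, 17.6 to 47.1%) and in 7 of 34 Ghost cells (20.6%, 8.70 to 37.9%), so that the shares were not separable at this number of cells. Among cells with a count, CPM ran from 0.866 to 493 in Pomc+ and from 16.8 to 83.9 in Ghost cells. 6 Pomc+ cells lay above the highest Ghost cell. The mean was 33.1 CPM in Pomc+ and 10.8 CPM in Ghost cells, a ratio of 0.325. It was 24.2 against 15.6 CPM on CD (ratio 0.645) and 43.9 against 6.92 CPM on HFD (ratio 0.157). A Pomc+ cell on HFD at 493 CPM held 35.4% of the summed level of Pomc+ cells, and without it the ratio was 0.491 over both diets and 0.365 on HFD. Without the Ghost cell on HFD at 75.9 CPM the ratio on HFD was 0.0703. On CD the ratio was close to 1, at 0.980, without the Pomc+ cell at 207 CPM, and 0.444 without the Ghost cell at 83.9 CPM. Summed counts over summed totals, which weight each cell by its depth, gave ratios of 0.246 on CD and 0.279 on HFD. The Pomc+ cell at 493 CPM had counts of 5 of the 6 neuronal markers and none of any marker of glia, vessels, tanycytes or AgRP neurons.

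*Shisal2b* was counted in close shares of both labels, 13 of 42 Pomc+ cells (31%, 17.6 to 47.1%) and 11 of 34 Ghost cells (32.4%, 17.4 to 50.5%). Its direction depended on the scale. Mean CPM was 41.8 in Pomc+ and 60.7 in Ghost cells, a ratio of 1.45, whereas summed counts over summed totals gave 61.2 and 51.8 CPM, a ratio of 0.848, and the deposited normalised counts a ratio of 0.741. The 3 highest levels belonged to Ghost cells on CD, at 564, 397 and 339 CPM, but these rest on 16, 11 and 40 counts in libraries of 28362, 27715 and 117909 counts. The highest counts, 313 and 225, were found in Ghost cells on HFD at 239.5 and 189 CPM. On CD the mean was 48.2 CPM in 23 Pomc+ cells (6 with a count) and 101 CPM in 15 Ghost cells (6 with a count), and on HFD 34 CPM in Pomc+ (7 of 19) and 28.9 CPM in Ghost cells (5 of 19). By normalised counts the Ghost mean was the lower on both diets, with ratios of 0.768 on CD and 0.767 on HFD, while summed counts gave 0.336 on CD and 1.43 on HFD. Without the Ghost cell at 564 CPM the ratio was 1.09 over both diets and 1.41 in place of 2.095 on CD. In the other 3 groups the highest level was nearly the same, 240.3 CPM in Pomc+ cells on CD, 243 CPM in Pomc+ cells on HFD and 239.5 CPM in Ghost cells on HFD.

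*Thsd4* was counted in 9 of 42 Pomc+ cells (21.4%, 10.3 to 36.8%) and in 6 of 34 Ghost cells (17.6%, 6.76 to 34.5%). The mean of 17.3 CPM in Pomc+ and 39.5 CPM in Ghost cells, a ratio of 2.28, rests on 1 cell. A Ghost cell on HFD held 1077 counts (1066 CPM), 79.5% of the summed level of all Ghost cells, and without it the ratio was 0.484. That library was deep, at 1010220 counts, had counts of 4 of the 6 neuronal markers and had counts of 2 of 6 astrocyte markers (19.8 CPM in sum) and 2 of 6 oligodendrocyte markers (80.2 CPM). The microglial, endothelial, fibroblast or mural, tanycyte or ependymal and AgRP neuron markers were at 0 in it. The next highest levels were 309 CPM in a Pomc+ cell on CD and 132 CPM in a Ghost cell on CD. On CD the means were 28 CPM in Pomc+ (6 of 23 cells) and 16.1 CPM in Ghost cells (3 of 15), a ratio of 0.577, which was 1.06 without the Pomc+ cell at 309 CPM and 0.280 without the Ghost cell at 132 CPM, and 1.05 by summed counts. On HFD the 3 Pomc+ cells with a count had 52.3, 26.7 and 3.46 CPM and the 3 Ghost cells 1066, 33 and 0.765 CPM, so that 1 Ghost value lay within the Pomc+ range, 1 above it and 1 below it.

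*Gpr179* had the highest Ghost to Pomc+ ratio of the 6 by mean CPM over both diets, but not under other settings. It was counted in 5 of 42 Pomc+ cells (11.9%, 3.98 to 25.6%) and in 6 of 34 Ghost cells (17.6%, 6.76 to 34.5%). The Pomc+ cells with a count had 164, 155, 99.7, 77.8 and 2.60 CPM. The Ghost cells with a count had 735, 424, 136, 92.6, 13.2 and 3.90 CPM. The 2 highest cells were Ghost cells, and the other 4 lay within the Pomc+ range. The mean was 11.9 CPM in Pomc+ and 41.3 CPM in Ghost cells, a ratio of 3.48, which was 1.71 without the Ghost cell at 735 CPM, below the 2.28 of *Thsd4*. *Thsd4* was also the higher by summed counts (4.64 against 3.46) and by normalised counts (2.71 against 2.07). On CD 1 of 23 Pomc+ cells (4.35%, 0.110 to 21.9%) and 4 of 15 Ghost cells (26.7%, 7.79 to 55.1%) had a count, and 3 of these 4 Ghost cells stood in the same run of 4 Ghost and 4 Pomc+ cells, by the order of cell numbers. The ratio on CD was 8.80, and it was 2.104 by summed counts and 1.63 without the cell at 735 CPM. On HFD the order of the shares was the opposite, with 4 of 19 Pomc+ and 2 of 19 Ghost cells, and the ratio of means was 1.501, or 0.284 without the Ghost cell at 424 CPM, 0.831 by normalised counts and 3.20 by summed counts. The cell at 735 CPM was shallow (44 of 59900 counts) and held counts of all 6 neuronal markers, of 1 microglial marker (384 CPM) and of 1 fibroblast or mural marker (117 CPM).

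*Tbx3os1* was the rarest of the 6, with 173 counts in all. It was counted in 5 of 42 Pomc+ cells (11.9%, 3.98 to 25.6%) and in 3 of 34 Ghost cells (8.82%, 1.86 to 23.7%). The Pomc+ cells had 28 and 5 and 4 counts on CD and 10 and 3 counts on HFD, and the Ghost cells had 3 counts on CD and 93 and 27 counts on HFD. In CPM the highest levels were 87.2 in a Pomc+ cell and 71.2 in a Ghost cell, and the means of 3.01 and 3.53 CPM gave a ratio of 1.17, which was 3.68 without that Pomc+ cell and 0.491 without that Ghost cell. All 8 of these cells also had counts of *Tbx3*, which was counted in 34 cells. In 7 of the 8 the antisense RNA had fewer counts than *Tbx3*, with ratios from 0.0435 to 0.637. The exception was a Pomc+ cell on HFD with 10 counts of *Tbx3os1* and 1 of *Tbx3*. Part of this joint counting can come from the exonic bases the genes share, and its size was not tested. *Tbx3* itself was counted in 22 of 42 Pomc+ cells (52.4%, 36.4 to 68%) and in 12 of 34 Ghost cells (35.3%, 19.7 to 53.5%).

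**Figure D2:**
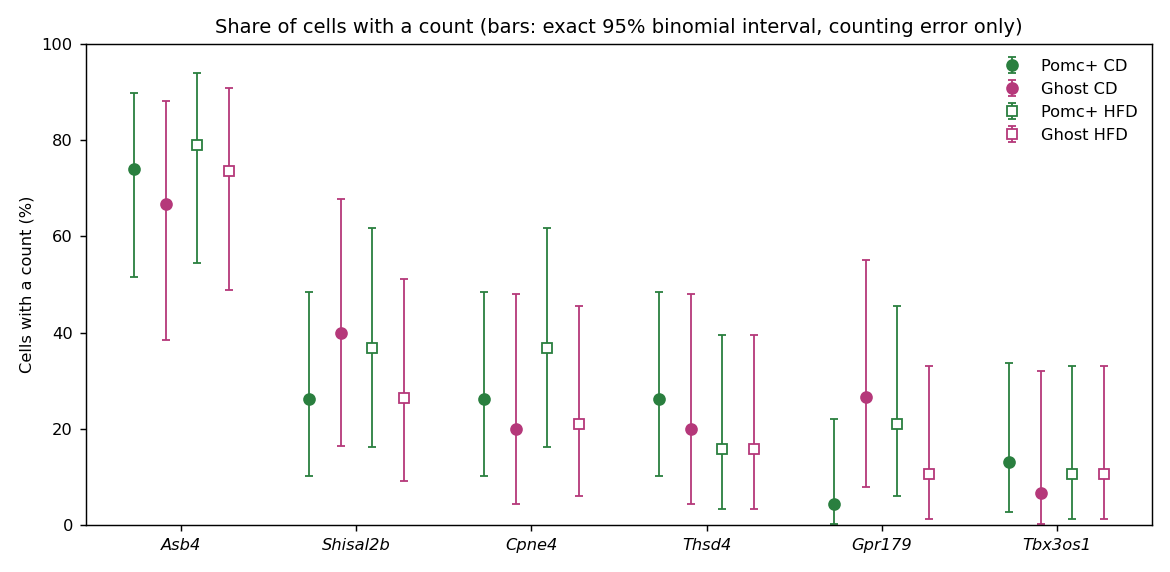
Share of cells with a count of each gene, in percent, by label and diet, with exact 95% binomial intervals (filled circles, CD; open squares, HFD; green, Pomc+; magenta, Ghost). The 4 intervals of each gene overlap, and only *Asb4* lies above 60% in every group.

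The shares were also taken at equal depth. When each cell of at least 40000 counts was thinned to 40000, which left out 3 Pomc+ and 5 Ghost cells, *Asb4* was expected in 73.7% of Pomc+ and 69.9% of Ghost cells, *Shisal2b* in 30.5 and 25.8%, *Cpne4* in 25 and 15.6%, *Thsd4* in 17.4 and 15%, *Gpr179* in 10.4 and 15.7% and *Tbx3os1* in 5.71 and 7.33%. The share of Pomc+ cells with *Tbx3os1* thus went from 11.9 to 5.71%, and the order of the labels turned from more Pomc+ to more Ghost cells. For *Shisal2b* the order turned the other way, from 31 against 32.4% to 30.5 against 25.8%. In the cells that were kept it was already so before thinning, with a count in 13 of 39 Pomc+ and 9 of 29 Ghost cells.

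Set against all genes, the ratios of the 6 were not unusual for these sparse libraries. Over both diets 1 of the 6, *Cpne4*, was more than 2-fold lower in Ghost than in Pomc+ cells, while 26% of the 12265 genes that reached 5 counts in 3 or more cells were. 2 of the 6, *Gpr179* and *Thsd4*, were more than 2-fold higher, against 16.4% of all genes. The median log2 ratio was 0.38 over the 6 genes and -0.15 over all genes. With the deposited normalised counts, whose size factors differ between the labels, the median over all genes was -0.64. On CD none of the 6 was more than 2-fold lower (33.3% of all genes) and 2, *Gpr179* and *Shisal2b*, were higher (23.5%). *Shisal2b* was lower on CD by summed and by normalised counts. On HFD 1, *Cpne4*, was lower (34.4%) and 1, *Thsd4*, higher (21.8%). A change beyond 2-fold was thus common for any gene at this number of cells, and 6 genes are too few to set apart from that background.

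**Figure D3:**
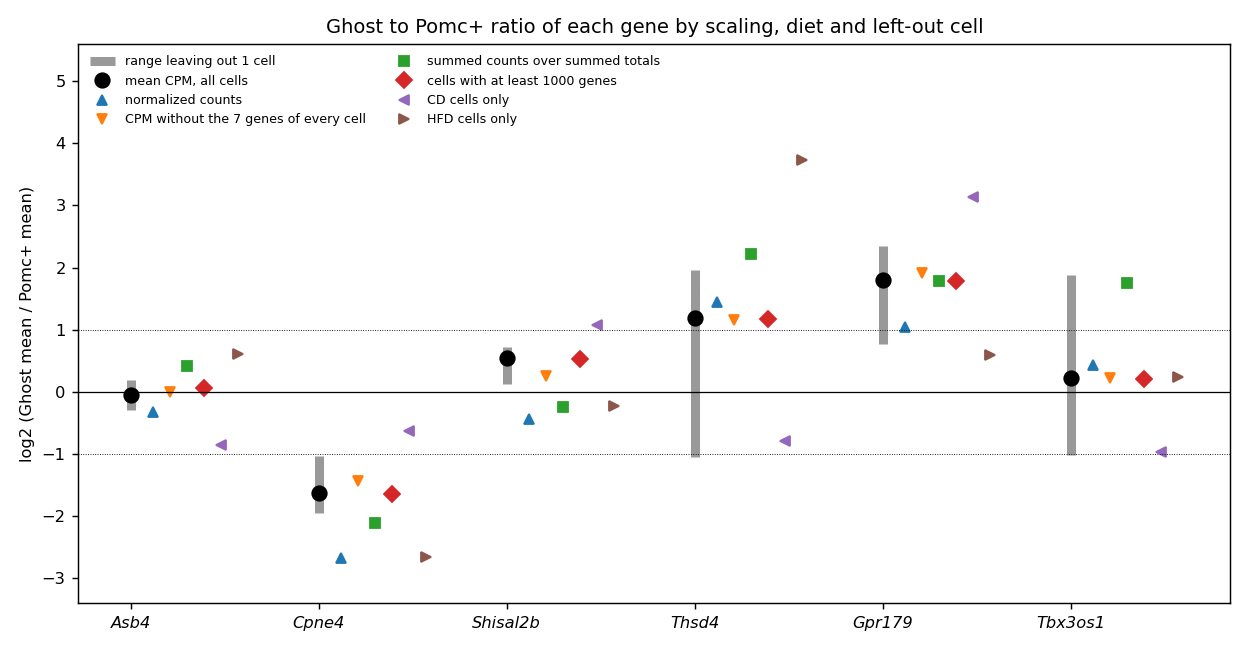
log2 of the Ghost to Pomc+ ratio of each gene (black, mean CPM of all cells; grey, range when any 1 cell is left out; coloured symbols, other scalings, cell filters and each diet), with dotted lines at a 2-fold difference. *Cpne4* stays below 0 and *Gpr179* above 0 under every setting shown, while the other 4 genes have symbols on both sides of 0.

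The diets were then compared within each label. Among Pomc+ cells *Thsd4* had a lower mean on HFD, 4.34 CPM against 28 CPM on CD (ratio 0.155, and 0.0599 to 0.286 when any 1 cell was left out), with a count in 3 of 19 cells against 6 of 23. By normalised counts the ratio was 0.376. By runs of cell numbers the Pomc+ means of *Thsd4* were 3.06, 68.6, 0 and 10.6 CPM on CD. On HFD they were 3.01, 17.4, 0 and 0 CPM. The CD run at 68.6 CPM held 4 of the 6 CD cells with a count. *Thsd4* was the 1 gene of the 6 more than 2-fold lower on HFD in Pomc+ cells, against 22.7% of all genes. *Gpr179* (18.1 against 6.73 CPM) and *Tbx3os1* (4.81 against 1.53 CPM) were more than 2-fold higher, against 28.7% of all genes. The *Gpr179* value on CD rests on 1 cell, and without the Pomc+ cell on HFD at 164 CPM the ratio of 2.695 was 1.49, against 5.19 by normalised counts. The *Tbx3os1* ratio of 3.15 turned to 0.153 without the Pomc+ cell at 87.2 CPM and to 0.416 by summed counts. *Asb4* had means of 453 CPM on HFD and 670.1 CPM on CD, a ratio of 0.676 (0.415 by normalised counts), while *Pomc* had a ratio of 0.293 in the same cells (3414 against 11652 CPM). Among Ghost cells *Asb4* had a mean of 690.2 CPM on HFD and 372 CPM on CD, a ratio of 1.86 that stayed between 1.46 and 2.84 when any 1 cell was left out (2.84 without the CD cell at 2165 CPM), with counts in 14 of 19 and 10 of 15 cells. The same ratio was 1.21 by summed and 3.31 by normalised counts. *Cpne4*, *Shisal2b* and *Gpr179* were more than 2-fold lower on HFD in Ghost cells (28.3% of all genes), and *Thsd4* and *Tbx3os1* more than 2-fold higher (31.6% of all genes). By summed counts *Shisal2b* and *Gpr179* were higher instead, with ratios of 2.63 and 3.28, and by normalised counts *Shisal2b* (0.713) and *Cpne4* (0.728) were less than 2-fold lower. The *Thsd4* ratio of 3.59 was 0.116 without the cell at 1066 CPM, and the *Gpr179* ratio of 0.460 was 2.49 without the cell at 735 CPM. The *Cpne4* ratio of 0.443 was 0.644 without the CD cell at 83.9 CPM and 0.198 without the HFD cell at 75.9 CPM, and the *Shisal2b* ratio of 0.286 was 0.170 without the HFD cell at 239.5 CPM. *Tbx3os1* on CD rests on 3 counts in 1 Ghost cell, and its ratio of 7.30 was 2.64 without the HFD cell at 71.2 CPM and 20.3 by summed counts.

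The 6 genes were then set against *Pomc* in each cell. Cells with a count of any of *Cpne4*, *Shisal2b*, *Thsd4*, *Gpr179* or *Tbx3os1* all had a count of *Pomc*, as did 55 of the 56 cells with *Asb4*. The exception was a Pomc+ cell on CD with 1 count of *Asb4*. Since *Pomc* was counted in 73 of 76 cells, such joint counting was to be had for any gene. Cells above the median *Pomc* level of 3065 CPM made up 13 of the 15 *Thsd4* cells, 7 of the 8 *Tbx3os1* cells, 15 of the 20 *Cpne4* cells, 18 of the 24 *Shisal2b* cells and 34 of the 56 *Asb4* cells, but 6 of the 11 *Gpr179* cells. Spearman's correlation coefficient with *Pomc* CPM over the 76 cells was 0.51 for *Asb4*, 0.43 for *Thsd4*, 0.42 for *Cpne4*, 0.39 for *Shisal2b*, 0.30 for *Tbx3os1* and 0.11 for *Gpr179*. Pearson's r on log2(CPM + 1) was 0.44, 0.31, 0.35, 0.35, 0.22 and 0.14 in the same order. Over all 9129 genes counted in at least 10 cells the median coefficient with *Pomc* was 0.23 (quartiles 0.15 and 0.31), and *Asb4* stood at rank 79 of these. The points share their library and its quality, since *Pomc* CPM also rose with the number of genes counted (coefficient 0.49). By CPM, and unlike the other members, *Asb4* had a lower coefficient with that number (0.37) than with *Pomc*. Without the genes counted in every cell, its coefficient with *Pomc* was 0.33. The part of library quality in these coefficients was not tested.

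**Figure D4:**
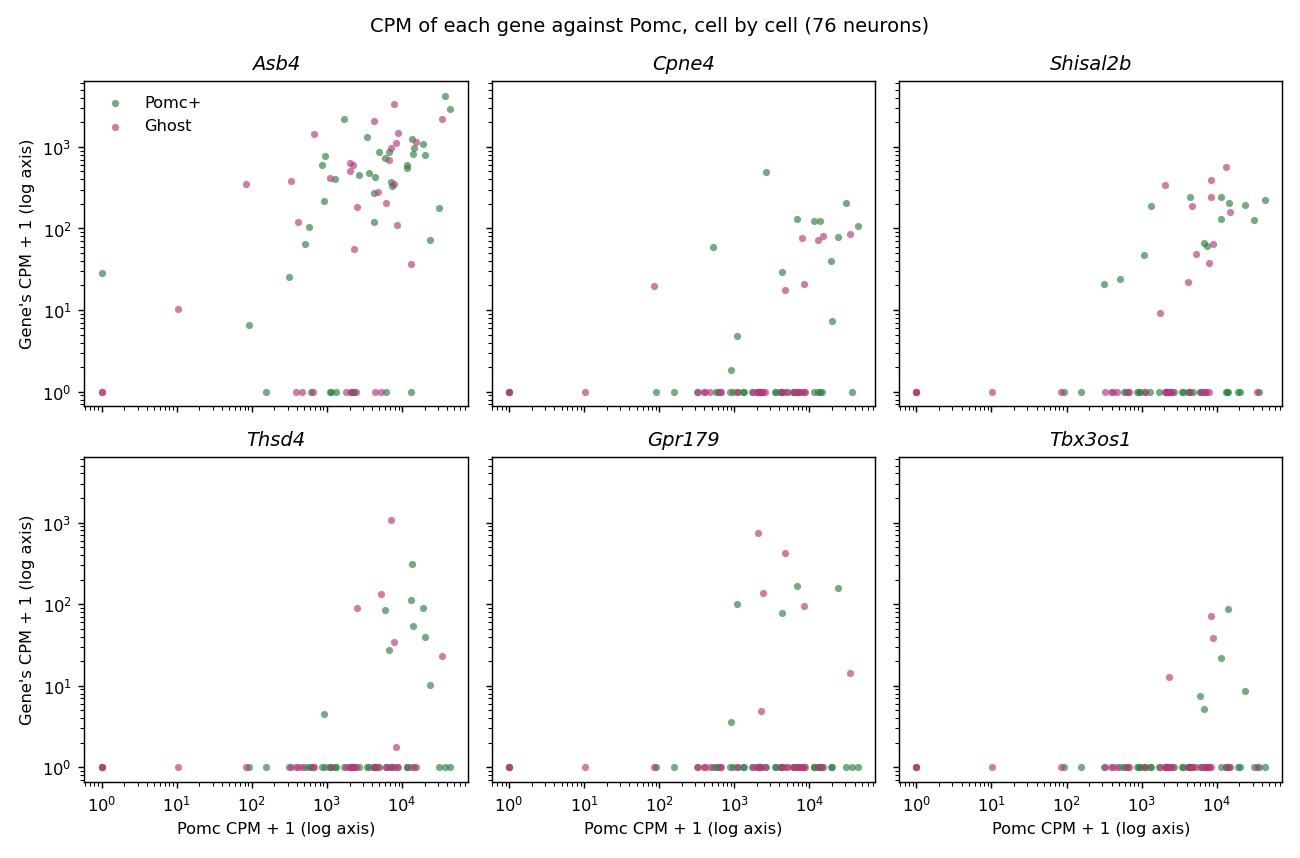
CPM + 1 of each gene against *Pomc* CPM + 1 in the 76 neurons, both on log axes, with Pomc+ cells in green and Ghost cells in magenta. *Asb4* rises with *Pomc* among cells of both labels, and the cells with *Thsd4* or *Tbx3os1* lie mostly at the right.

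The relation of *Asb4* with *Pomc* was seen among Ghost and among Pomc+ cells. Spearman's coefficient was 0.49 over the 34 Ghost cells and 0.52 over the 42 Pomc+ cells, and 0.46 over the 56 cells with a count of *Asb4*. Without the 7 genes that were counted in every cell, which take 43.7% of all counts, the coefficient over the 76 cells was 0.33. On that scale *Thsd4* had a higher coefficient, 0.39. With all genes kept, the coefficient for *Shisal2b* was 0.53 in Ghost and 0.31 in Pomc+ cells, for *Cpne4* 0.47 and 0.37, and for *Thsd4* 0.40 and 0.43. Relative to *Pomc*, summed over cells, there were 46.4 counts of *Asb4* per 1000 counts of *Pomc* in Pomc+ and 112 in Ghost cells. On CD these were 37.9 and 70.1, and on HFD 92.0 and 149, so that the Ghost value was the higher on both diets. On CD *Asb4* itself was not higher in Ghost cells. By summed counts over summed totals its Ghost to Pomc+ ratio was 0.925, and that of *Pomc* 0.501. On HFD these ratios were 2.097 and 1.30. Over single cells with both transcripts the counts of *Asb4* per 1000 of *Pomc* had a median of 114 and ran from 2.67 to 4161. In 5 cells there were more counts of *Asb4* than of *Pomc*. With the diets pooled, *Cpne4* was the 1 gene of the 6 with fewer counts per 1000 of *Pomc* in Ghost (1.90) than in Pomc+ cells (4.59), and it was so on each diet. On CD *Shisal2b* (3.34 against 4.98) and *Tbx3os1* (0.0856 against 0.241) were also the lower in Ghost cells.

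How many of the 6 genes were counted in a cell followed how many genes were counted in all. 13 of the 76 cells had none of the 6, 29 had 1, 13 had 2, 11 had 3, 7 had 4, none had 5 and 3 had all 6. The 3 cells with all 6 were 1 Pomc+ cell on CD, 1 Pomc+ cell on HFD and 1 Ghost cell on HFD, with 6107, 9144 and 9808 genes counted, against a median of 2670.5 over the 76 cells. This Ghost cell, with the highest counts of *Tbx3os1* (93) and *Shisal2b* (313), also had counts of all 6 microglial markers. These summed to 1530 CPM, against a median of 1.34 CPM over all cells. The Pomc+ cell on HFD had no count of a microglial marker and counts of 2 astrocyte markers (132 CPM). At least 3 of the 6 genes were counted in 13 of 42 Pomc+ and 8 of 34 Ghost cells. Spearman's correlation coefficient of the number of members with the number of genes counted was 0.82, with total counts 0.39 and with *Pomc* CPM 0.55. *Cpne4* and *Shisal2b* were counted together in 13 cells, 65% of the cells with *Cpne4* and 54.2% of those with *Shisal2b* (coefficient 0.44). *Shisal2b* and *Thsd4* shared only 5 cells, 20.8 and 33.3% of their cells (coefficient -0.02). *Asb4* and *Gpr179* shared 8 cells (coefficient -0.05).

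**Figure D5:**
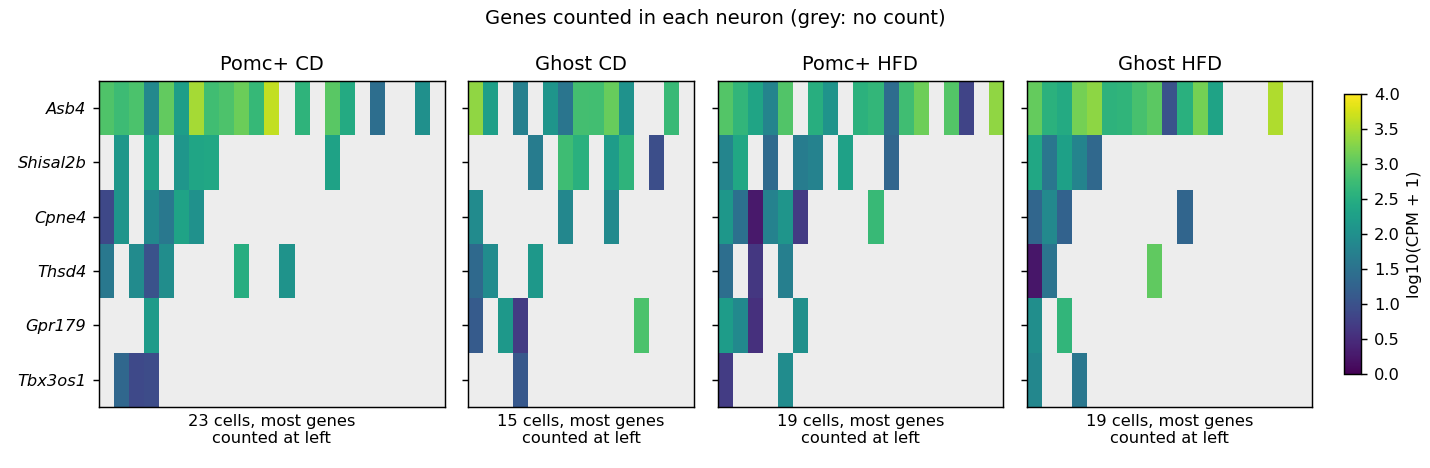
Levels of the 6 genes in each neuron as log10(CPM + 1), grey where there was no count, with cells of each group ordered by the number of genes counted. Counts of the 5 sparser genes gather at the left of each group, where most genes were counted, while *Asb4* reaches further to the right.

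The genes whose pattern over the 76 cells was most like that of each member were ranked by Spearman's correlation coefficient of CPM. For *Asb4* these were *Atp6v1f*, a subunit of the vacuolar proton pump (coefficient 0.59), the chaperone gene *Hspa8* (0.58) and *Atpif1*, an inhibitor of the mitochondrial ATP synthase (0.56), against a median of 0.17 over all genes. For *Cpne4* they were the tRNA synthetase gene *Eprs* (0.71), *Miga1* (0.68) and *Cacul1* (0.67), with a median over all genes of 0.28, the highest of the members. For *Shisal2b* they were *Gm12655* (0.56), the coatomer gene *Copz1* (0.56), which was counted in all 24 *Shisal2b* cells, and the splicing gene *Cwc27* (0.55). For *Thsd4* they were the adhesion gene *Sdk2* (0.63), *Rapgef6* (0.62) and the ceramide synthase gene *Cers6* (0.60). For *Gpr179* they were *Gabre*, a GABA-A receptor subunit gene (0.75), which was counted in 9 of the 11 *Gpr179* cells and in 12 cells in all, *Igsf9* (0.67) and *Aasdh* (0.67). *Tbx3os1* was counted in too few cells for this ranking.

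Relatives and partners of the 6 genes were described from lists of whole families. Their differences between Ghost and Pomc+ cells were not tested. Over all genes past the filter on low counts, 26% were more than 2-fold lower and 16.4% more than 2-fold higher in Ghost cells. *Asb4* was the member of its family counted in the most cells. Of the other 17 Asb genes 13 had a count, and the next, *Asb8*, was counted in 29 cells at a mean of 62.7 CPM, against 562 CPM for *Asb4*. The 4 components with which Asb proteins form a ubiquitin ligase were all counted, *Elob* in 67, *Eloc* in 46, *Rnf7* in 37 and *Cul5* in 31 cells, with Ghost to Pomc+ ratios from 0.737 to 1.03. Among the 9 copines *Cpne6* was counted in more cells (33) than *Cpne4* (20) or *Cpne2* (20). *Cpne5* had the opposite direction to *Cpne4*, at 29.3 CPM in Ghost and 7.09 CPM in Pomc+ cells. Among 11 Shisa genes *Shisa4* was counted in 27 cells, *Shisal2b* in 24 and *Shisal1* in 18. *Shisal1* was counted in 3 Ghost and 15 Pomc+ cells.

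Of the 8 genes listed as relatives of *Thsd4*, 7 had a count, and *Thsd7a* (11 cells) was the 1 of them counted in at least 10 cells. Of 6 microfibril genes *Fbn1*, which encodes fibrillin 1, was counted in the most cells, 10. The relative of *Gpr179*, *Gpr158*, was counted in 20 cells, 11 Ghost and 9 Pomc+, at means of 54.3 and 22 CPM. The 5 genes of the RGS proteins and the G protein subunit that bind these receptors were all counted. *Gnb5* was counted in 36, *Rgs9* in 27, *Rgs7* in 18 and *Rgs11* in 13 cells. By mean, *Rgs7* was higher in Ghost cells (45.2 against 10.8 CPM) and *Rgs11* lower (7.29 against 58.8 CPM). *Rgs9* (47.3 against 39.5 CPM) and *Gnb5* (91.7 against 102 CPM) had closer means. Among *Tbx2* to *Tbx5* only *Tbx3* was counted in at least 10 cells.

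Against the other 33 genes of the same marker set, the directions of the 6 were as follows. Of the 33, 25 had a lower and 8 a higher mean CPM in Ghost than in Pomc+ cells. 10 were more than 2-fold lower and 1 more than 2-fold higher, with a median log2 ratio of -0.55. Over all genes past the filter on low counts, 26% were more than 2-fold lower and 16.4% higher, with a median of -0.15. Of the 6, 2 were lower and 4 higher by mean CPM, and the difference from the 33 was not tested. With the deposited normalised counts 3 of the 6 were lower and 3 higher, and of the 33 genes 29 were lower and 4 higher. On that scale the median log2 ratio over all genes was -0.64. Of the 4 that were higher by mean CPM, *Thsd4* (0.484) and *Tbx3os1* (0.491) had ratios below 1 without 1 cell each, and *Shisal2b* was lower by summed and by normalised counts. The ratio of *Asb4*, one of those lower, was above 1 by summed counts (1.34). Among those of the 33 counted in at least 10 cells the lowest ratios were those of *Pdyn* (0.232), the prodynorphin gene, and *Slc18a2* (0.310), the vesicular monoamine transporter gene, and the highest those of *Esr1* (1.77), which encodes oestrogen receptor alpha, and *Ecel1* (1.44). *Pomc* itself had means of 7925 CPM in Pomc+ and 4838 CPM in Ghost cells, a ratio of 0.610. The diets differed in this. On CD the means were 11652 CPM in Pomc+ and 6296 CPM in Ghost cells, a ratio of 0.540. On HFD they were 3414 CPM in Pomc+ and 3686 CPM in Ghost cells, a ratio of 1.08.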

How the data were processed

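Single arcuate neurons of reporter mice were patched, and each pipette's content was made into 1 library by SMART-Seq Single Cell chemistry and Nextera XT. The authors' processing notes name cutadapt 2.10, STAR 2.7.5a, DESeq2 and the builds GRCm38 and mm10. The deposited raw table holds counts for 56980 Ensembl genes in 76 cells, without molecular identifiers. The deposited normalised table holds a signal in which every count of a cell is divided by that cell's size factor (0.0157 to 9.05). Genes were named from GENCODE M21, which matched 52073 identifiers. The unmatched ones took 36.6% of counts. Some identifiers are newer than that annotation, so the gene models used for counting may differ from the coordinates and lengths given.

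Counts were divided by the total of each cell and multiplied by 1000000 (CPM). No cell was left out. The ratio of mean CPM and the percentage of cells in which a gene was counted (Clopper-Pearson intervals, 95%) were compared between groups. No test was made, since the labels name no mouse. Shares of all genes past 2-fold used genes that reached 5 counts in 3 or more cells, a filter that all 6 genes passed. Thinned shares are exact expectations for draws without replacement. Spearman's correlation coefficient used CPM over cells. The 6 genes, Tbx3 and Pomc were named by rule, with the 3 nearest genes by this coefficient among those counted in at least 10 cells, relatives counted in at least 10 cells and the 2 highest and 2 lowest of the other 33 markers. The genes, lists and rules were chosen with earlier results of these data known. The ratio and thinning code was tested on simulated data. Python 3.11.15, numpy 2.4.6, scipy 1.17.1 and pandas 2.3.3 were used.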

Additional observations from a re-analysis of the deposited data

How the results depend on the processing

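All values here are log2 Ghost to Pomc+ ratios unless named otherwise, and the cause of each shift was not tested. With the deposited normalised counts the ratio was -0.33 for *Asb4*, -2.68 for *Cpne4*, -0.43 for *Shisal2b* (turned from 0.54), 1.44 for *Thsd4* and 1.05 for *Gpr179*, and 3 genes in place of 5 were past 2-fold between the diets in Ghost cells. Without the genes counted in every cell it was -0.0096 for *Asb4* and 0.25 for *Shisal2b*. Summed counts over summed totals gave 0.42 for *Asb4* and -0.24 for *Shisal2b* (both turned), -2.12 for *Cpne4*, 2.22 for *Thsd4* and 1.75 for *Tbx3os1*. In cells with at least 1000 genes *Asb4* turned to 0.061. With runs of cell numbers weighted by their Ghost cells it was -0.37 for *Asb4*, -1.29 for *Cpne4*, 1.83 for *Thsd4*, 1.54 for *Gpr179* and 0.87 for *Tbx3os1*. In CD cells alone it was -0.85 for *Asb4*, -0.63 for *Cpne4*, 1.07 for *Shisal2b*, -0.79 for *Thsd4* (turned), 3.14 for *Gpr179* and -0.97 for *Tbx3os1* (turned). In HFD cells alone it was 0.61 for *Asb4* (turned), -2.67 for *Cpne4*, -0.23 for *Shisal2b* (turned), 3.74 for *Thsd4* and 0.59 for *Gpr179*. Leaving out 1 cell at a time gave -0.30 to 0.19 for *Asb4*, -1.96 to -1.03 for *Cpne4*, 0.12 to 0.72 for *Shisal2b*, -1.05 to 1.96 for *Thsd4*, 0.77 to 2.34 for *Gpr179* and -1.03 to 1.88 for *Tbx3os1*. Between the diets it gave 2 to 4 genes past 2-fold in Pomc+ and 4 to 5 in Ghost cells. Of the settings listed, *Cpne4* and *Gpr179* kept their direction in all, but not within each run of cell numbers. Over the 8 runs the Ghost mean of *Cpne4* was lower in 4 and higher in 2. That of *Gpr179* was higher in 3 and lower in 2. In the remaining runs the gene had no count.

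The shares of cells with a count stayed within their binomial intervals under thinning, minimum counts of 2 and 5 and the filter on genes per cell. Without a filter on low counts 26.6% of all genes were more than 2-fold higher in Ghost cells. The Spearman coefficient of *Gpr179* with *Pomc* turned to -0.020 without the genes counted in every cell, and that of *Thsd4* to -0.13 within its 15 cells with a count. No paired analysis was possible because the groups share no replicate number, and the weighting by runs of cell numbers, given above, is the 1 comparison made within blocks of cells. In the shallowest library 1 count equals 246 CPM, and no mouse is known. Beyond the thinned shares, how far depth limits the 5 sparser genes was not tested.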
